A study of Homo sapiens with 8 samples.

Results

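The RNA of heavy polysomes was compared between acute myeloid leukaemia cells labelled as overexpressing OGFOD1 (OE) and control cells. The comparison used the 4 heavy-pool libraries of the series, out of 8 libraries in all: OE Molm13 and OE U937, then control Molm13 and control U937, chosen by their genotype, cell line and pool labels and paired by cell line. Molm13 is a human leukaemia line with a KMT2A fusion, and U937 is a human line of monocytic character. In the OE group OGFOD1 was delivered on a lentiviral vector. The other group has the genotype label control, and its library names carry the letters Scr, which the labels do not explain. The labels name no promoter or clone for either group. All 4 cultures were exposed to cycloheximide, which stalls elongating ribosomes, before lysis and sucrose gradients, and each heavy pool joined the gradient fractions that carried at least 3 ribosomes per RNA. There was 1 library per line and genotype, so n = 2 per group. The labels say nothing of independent cultures, so p-values measure only the spread between these libraries. Below, each pair of values gives the Molm13 library and then the U937 library.

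OGFOD1 is an oxygenase that hydroxylates a proline of RPS23, a protein of the decoding centre of the small ribosomal subunit, and is studied as a regulator of translation and of stress granules. An RNA that is being translated efficiently carries several ribosomes and travels deep into a sucrose gradient, whereas free RNA and RNA with few ribosomes stay near the top. The amount of an RNA in the heavy pool therefore depends both on how much of it a cell holds and on how much of that is loaded with ribosomes. Heavy-pool libraries alone do not separate these quantities, and fewer cells of a type and less RNA per cell cannot be told apart in them either.

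OGFOD1 itself ran against the label. OGFOD1 (ENSG00000087263, chromosome 16, 56451490 to 56479100, plus strand, GRCh38) was at 25.1 and 12.3 CPM (each gene's share of the library's counts, scaled by TMM to a common total) in the libraries labelled OE, against 45.0 and 60.7 CPM in the control libraries. Both libraries labelled OE lay below both control libraries. OE over control gave -1.57 on the log2 scale (SE 0.36, adjusted p = 0.00218, edgeR's quasi-likelihood test with Benjamini-Hochberg adjustment over all genes). The adjusted p of OGFOD1 was 0.25 without the U937 library labelled OE and 0.145 without the U937 control library, with log2 fold changes of -1.04 and -1.26, and 0.125 when all 8 libraries were fitted together. RPS23, the substrate, was at 1180 and 938 CPM in the libraries labelled OE and at 1380 and 1520 CPM in the control libraries, a log2 fold change of -0.46 that did not pass (SE 0.49, adjusted p = 0.654). OGFOD1 overlaps NUDT21 and BBS2 in the annotation, and reads in the shared stretches may count for each, so its level is uncertain by that amount. NUDT21 was at 80.0 and 97.1 CPM in the libraries labelled OE against 114 and 122 CPM in the control libraries (-0.42, adjusted p = 0.557), and BBS2 at 15.8 and 15.4 against 18.2 and 17.4 CPM (-0.19, adjusted p = 0.804). Every direction below goes by labels that the targeted gene contradicts.

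The line labels were hardly visible in the RNA. Among 9161 genes with a mean of at least 10 CPM, 50 differed between the Molm13 and U937 labels by a log2 value of 1 or more, with the same sign under both genotype labels, and 0 differed by at least 3. By the genotype label 549 differed by at least 1 and 5 by at least 3. Total counts ran from 25741930 in the Molm13 library labelled OE to 78121157 in the U937 control library, and 27392 to 32126 genes had a count. Myeloid markers were present, at a summed 2550 and 3110 CPM of the unscaled total in the libraries labelled OE and 1810 and 1580 in the control libraries, with 12 of 12 markers detected. Of 9 erythroid and megakaryocytic markers, all were under 1 CPM in all 4 libraries. T and NK cell markers summed to 617 and 678 CPM in the libraries labelled OE, against 265 and 181 in the control libraries; CD3D, NKG7 and TRAC carried this sum, while CD3E, CD3G, CD2 and CD8A were under 1 CPM everywhere. B cell markers summed to 9.59 and 7.5 against 6.93 and 3.6 CPM, and fibroblast and epithelial markers to 7.5 and 5.45 against 25.7 and 10.1 CPM. The keratin genes KRT8 and KRT18 carried the fibroblast and epithelial sum. Of its 9 markers, 7 were under 1 CPM in all 4 libraries.

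In the heavy polysomes of the cells labelled OE, 22 of 51 replication genes, 18 of 56 ribosome biogenesis factors and 5 of 30 hnRNP and SR splicing genes fell, and 0 of these rose. In the other direction 17 of 28 hypoxia targets, 13 of 26 myeloid surface receptors, 15 of 38 interferon-induced genes and 7 of 23 cholesterol genes rose, and 0 fell. Of 22108 genes tested with cell line as a covariate, 1060 rose (4.79% of all tested) and 623 fell (2.82%). A description with no test counted the genes at a mean of at least 10 CPM whose OE minus control difference reached a log2 value of 1 with the same sign under each line label. By this size rule 329 of 9161 genes were higher (3.59%) and 220 were lower (2.4%). Of these, 314 and 202 had also passed edgeR's threshold in the same direction. The within-label differences had the same sign for 66.4% of the 9161 genes. Their correlation across genes was 0.576, a description over genes that share the libraries.

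The number of calls depended on which libraries entered the fit. With the cell line term left out, 419 genes rose and 178 fell. With 1 heavy library removed and no line term, the total was 345 without the Molm13 library labelled OE, 265 without the U937 library labelled OE, 721 without the Molm13 control and 529 without the U937 control. In a fit of all 8 libraries, light pools included, 0 rose and 1 fell (DYNC1I1, a dynein intermediate chain gene), with 3670 genes at an unadjusted p under 0.05; DESeq2 on the 4 heavy libraries called 1514 and limma voom 2041. Leaving the Molm13 control light library out of that joint fit gave 1855 calls, and leaving out the U937 control light library gave 1882.

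**Figure D1:**
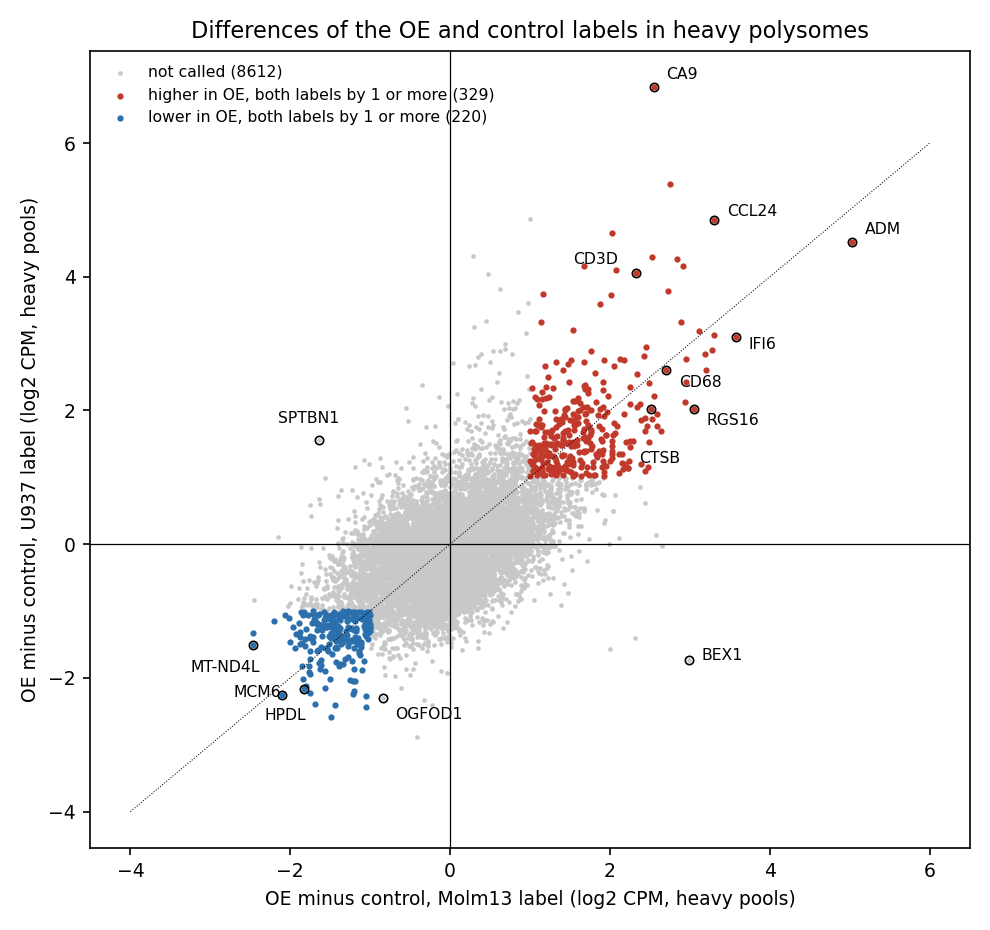
OE minus control in the heavy pools, in log2 CPM, under the Molm13 label (x axis) and the U937 label (y axis) for 9161 genes; red and blue points are the 329 and 220 genes that differ by at least 1 in the same direction under both labels, and the dotted line marks equal differences. ADM and MCM6 lie near the dotted line, CA9 lies above it, and BEX1 and SPTBN1 have opposite signs under the line labels.

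DNA replication genes fell together. Of 51 tested members 22 fell and 0 rose, 16 were lower by the size rule, and the median log2 fold change was -0.97, against -0.03 over all genes tested. Under the line labels the median was -0.82 (Molm13) and -1.16 (U937). The MCM2-7 ring is the replicative helicase, and all 6 of its subunits fell. MCM6 (chromosome 2, 135839626 to 135876426, minus strand, GRCh38) was at 36.5 and 32.9 CPM in the libraries labelled OE and 129 and 148 CPM in the control libraries (log2 fold change -2.00, SE 0.37, adjusted p = 0.000163). MCM4 was at 87.0 and 74.7 CPM against 294 and 286 CPM (-1.85, SE 0.40, adjusted p = 0.0015). In both genes the groups were separated by a wide gap with little spread inside either group. Genes described as separate here and below had passed the test or were chosen for a difference shared by both line pairs. Their separation follows largely from that choice, and its share over all genes was not counted. MCM2, MCM3, MCM5 and MCM7 fell by 1.56, 1.59, 1.48 and 1.25 on the log2 scale.

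Factors that load or accompany the helicase fell as well. MCM10, which helps to activate it, was at 9.41 and 7.09 CPM in the libraries labelled OE against 31.8 and 33.3 CPM in the control libraries (-2.00, SE 0.34, adjusted p = 5.84e-05). The GINS subunit gene GINS4 was at 34.7 and 28.5 CPM against 121 and 125 CPM (-1.97, SE 0.36, adjusted p = 0.000155). POLA1, the catalytic subunit of DNA polymerase alpha, was at 5.42 and 4.39 CPM against 19.6 and 17.9 CPM (-1.94, SE 0.36, adjusted p = 0.000155). CLSPN, which links stalled forks to the checkpoint kinase CHK1, was at 19.7 and 8.83 CPM against 63.7 and 46.3 CPM (-2.04, SE 0.34, adjusted p = 3.9e-05). No library labelled OE overlapped a control library in any of these genes, which follows largely from how the genes were chosen. The other called members were MCM8, CDC6, GINS1, POLA2, POLE, POLE2, RPA1, FEN1, LIG1, TIPIN, RECQL4 and TICRR, and the sliding clamp PCNA, at 321 and 281 against 454 and 704 CPM, did not pass (-0.91, adjusted p = 0.227). HELLS, a chromatin remodeller needed for DNA methylation, and TONSL, which recognises newly replicated histones, were among the genes with the largest decreases outside the list, with log2 fold changes of -2.04 and -1.85. HPDL, a mitochondrial dioxygenase, had the lowest log2 fold change of the genes named by size, at 6.93 and 4.54 CPM in the libraries labelled OE against 30.0 and 21.8 CPM in the control libraries (-2.19, SE 0.35, adjusted p = 1.55e-05).

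E2F transcription factors drive many replication genes, and promoter windows from RefSeq (GRCh38.p14, 250 bases before to 50 after each start) were searched for 3 E2F-type sequences, TTTCGCGC, TTTGGCGC and TTTCCCGC, on both strands. A match was present in 19 of 43 replication promoters (44.2%), in 2.79% of all 27305 promoters and in 5.45% of promoters of genes at 10 CPM or more. Among genes called by size it was in 16.8% of 149 promoters of lower genes and 2.87% of 209 promoters of higher genes. The lower genes by size include 16 members of the replication list, so the 16.8% is not separate from the share of that list. The stretches around a match are shown for the helicase subunit and the polymerase that headed the list, with the match in capitals (MCM6, minus strand, chr2:135876497-135876554; POLA1, plus strand, chrX:24693756-24693813).
MCM6: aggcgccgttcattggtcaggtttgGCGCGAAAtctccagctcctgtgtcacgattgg
POLA1: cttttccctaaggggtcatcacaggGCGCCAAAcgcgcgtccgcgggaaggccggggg
The capitals in MCM6 and POLA1 are the reverse complements of TTTCGCGC and TTTGGCGC, and begin 86 and 137 bases before the annotated start.

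Genes that supply nucleotides, repair DNA and divide the cell had lower medians as well. In nucleotide synthesis 5 of 24 members fell and 0 rose, with a median of -0.66. The large ribonucleotide reductase subunit RRM1 was at 36.9 and 43.3 CPM in the libraries labelled OE and 115 and 149 CPM in the control libraries (-1.71, SE 0.36, adjusted p = 0.00103). CAD, the enzyme of the opening steps of pyrimidine synthesis, CTPS1, which makes CTP, and the purine enzymes PFAS and GMPS made up the rest. RRM1-AS1, antisense to RRM1, was at 5.21 and 5.18 against 18.9 and 18.4 CPM; the kit does not mark strand, so its reads cannot be told from those of RRM1. In DNA repair 9 of 34 fell and 0 rose (median -0.80). PARP1, which senses strand breaks, was at 47.2 and 30.1 CPM in the libraries labelled OE against 146 and 110 CPM in the control libraries (-1.75, SE 0.36, adjusted p = 0.000762). The kinase gene PRKDC of end joining was at 102 and 110 against 320 and 329 CPM (-1.62, SE 0.41, adjusted p = 0.00647), and BLM, BRCA1, FANCD2, MSH6, XRCC2 and ATR were also called. In mitosis 12 of 36 fell and 0 rose (median -0.89), although 3 met the size rule. KIF11, the spindle motor, was at 10.4 and 16.7 CPM in the libraries labelled OE against 30.3 and 38.4 CPM in the control libraries (-1.37, SE 0.33, adjusted p = 0.00479), and the checkpoint genes TTK and BUB1B fell by 1.26 and 1.33 on the log2 scale. Among G1 cyclins, CDKs and their inhibitors 1 of 24 rose and 3 fell: CDKN1A, which encodes the CDK inhibitor p21, rose, and the phosphatase gene CDC25A, RBL1 and E2F2 fell.

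**Figure D2:**
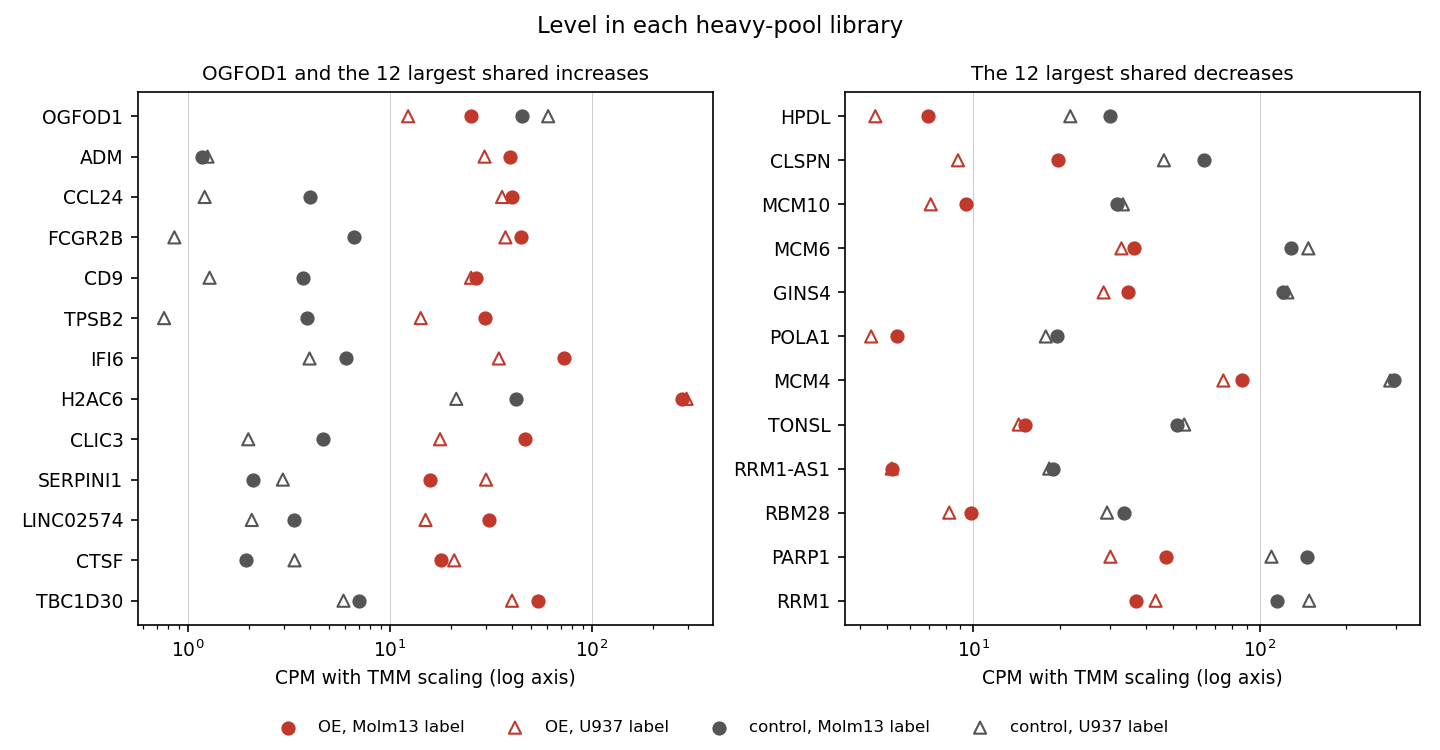
CPM on a log axis in each of the 4 heavy-pool libraries for OGFOD1 and the 12 genes with the largest increase shared by both line labels (left panel) and the 12 with the largest shared decrease (right panel); red marks OE, grey marks control, circles Molm13 and triangles U937. In each of these genes both libraries labelled OE lie on the same side of both control libraries. The 12 genes per direction were chosen for a large difference in both line pairs, so their separation largely follows from the choice. Values run from 39.1 and 29.4 against 1.17 and 1.25 CPM for ADM to 36.9 and 43.3 against 115 and 149 CPM for RRM1.

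Ribosome biogenesis factors, which make and fold ribosomal RNA in the nucleolus, fell in 18 of 56 cases and rose in 0, with a median of -0.82, and 13 met the size rule. RBM28, a nucleolar assembly factor, was at 9.78 and 8.23 CPM in the libraries labelled OE against 33.5 and 29.3 CPM in the control libraries (-1.80, SE 0.34, adjusted p = 0.000227). RRS1, needed for the large subunit, was at 26.7 and 23.7 against 82.0 and 83.3 CPM (-1.72, SE 0.34, adjusted p = 0.000513). The nucleolar scaffold genes NOLC1 and TCOF1 fell by 1.57 and 1.67 on the log2 scale. Nucleolin (NCL), at 312 and 160 CPM in the libraries labelled OE against 817 and 564 CPM in the control libraries, fell by 1.61, and the helicase DDX21 by 1.55. In all of these genes the 2 groups were separate, which follows largely from how the genes were chosen. Of 33 RNA polymerase I and III genes 3 fell (POLR1A, POLR1B and POLR3B) and 0 rose, and the median was -0.36.

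The mRNAs of the translation machinery were lower in median, with few single calls. All 79 cytosolic ribosomal protein genes had a negative log2 fold change, from -1.38 to -0.15 with a median of -0.64, and 1 of 79 fell: RPL39, at 106 and 171 CPM in the libraries labelled OE against 268 and 459 CPM in the control libraries (-1.38, SE 0.41, adjusted p = 0.026). Summed over the list, ribosomal protein mRNAs held 63700 and 53700 CPM in the libraries labelled OE and 84800 and 99000 CPM in the control libraries. Of 22 TOP mRNAs outside the ribosome, which open with a pyrimidine tract and whose translation follows mTOR, 0 passed in either direction, with a median of -0.47; NPM1 was at 976 and 1100 CPM against 1900 and 2180 CPM (-0.97, SE 0.50, adjusted p = 0.266). Of 38 initiation and termination factors 2 fell and 0 rose (median -0.37). EIF5B, which joins the ribosomal subunits, was at 79.2 and 37.8 CPM in the libraries labelled OE against 189 and 155 CPM in the control libraries (-1.65, SE 0.38, adjusted p = 0.0031). EIF4G1, the scaffold of the cap-binding complex, was at 26 and 28.6 against 106 and 61.2 CPM (-1.56, SE 0.35, adjusted p = 0.00212). Of 20 cytosolic aminoacyl-tRNA synthetases EPRS1, GARS1 and VARS1 fell and 0 rose (median -0.66). Among 8 ribosomal oxygenases and their substrates, OGFOD1 and RIOX1, the histidine hydroxylase of RPL8, fell, RIOX1 with 12.2 and 16.2 against 28.2 and 33.8 CPM (-1.13, SE 0.33, adjusted p = 0.0222), and RIOX2 had -0.54 without passing (adjusted p = 0.367).

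Splicing regulators and chaperones lay on the lower side too. Of 30 hnRNP and SR protein genes 5 fell and 0 rose (median -0.90); 10 met the size rule. HNRNPL was at 19.1 and 19.0 CPM in the libraries labelled OE against 50.7 and 50.2 CPM in the control libraries (-1.40, SE 0.33, adjusted p = 0.00342), and SRSF6, HNRNPAB, HNRNPA3 and HNRNPH3 were also called. Of 28 cytosolic chaperones 3 fell and 0 rose (median -0.75): HSP90AA1, the inducible HSP90, was at 606 and 683 against 1540 and 2360 CPM (-1.57, SE 0.50, adjusted p = 0.0421), and HSPH1 and HSPA4 fell with it. Proteasome subunits had a median of -0.42 with 2 of 35 lower, PSMD1 and the activator gene PSME4. Their median was -0.1 under the Molm13 label and -0.73 under the U937 label. Among small nucleolar RNA host genes 4 of 21 fell, among them DANCR at 15.7 and 16.1 CPM in the libraries labelled OE against 49.8 and 48.9 CPM in the control libraries (-1.63, SE 0.33, adjusted p = 0.000612). The median of MYC and its targets was -0.43, with CAD lower and MXI1, a MYC antagonist, higher among 25. That median was -0.1 under the Molm13 label and -0.57 under the U937 label. MYC itself was at 78.0 and 72.3 against 122 and 114 CPM (-0.65, adjusted p = 0.303).

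Mitochondrial mRNAs did not move as a block. Of the 13 mRNAs encoded in mitochondrial DNA 5 fell and 0 rose, with a median of -0.74. MT-ND1 was at 148 and 209 CPM in the libraries labelled OE against 812 and 528 CPM in the control libraries (-1.90, SE 0.46, adjusted p = 0.0047), and MT-ND2, at 108 and 127 against 453 and 263 CPM, fell by 1.56 on the log2 scale. The overlapping MT-ND4 and MT-ND4L and MT-ATP8 were the other calls. On the positive side MT-CO1 was at 847 and 2010 CPM in the libraries labelled OE against 602 and 784 CPM in the control libraries (0.93, SE 0.49, adjusted p = 0.281), and MT-CYB at 310 and 1070 against 190 and 475 CPM (0.94, adjusted p = 0.215). Mitochondrial genes took 0.36% and 0.941% of counts in the libraries labelled OE and 0.797% and 0.848% in the control libraries. Nuclear oxidative phosphorylation genes had 1 of 56 lower, NDUFS1, and a median of -0.24. Mitochondrial ribosomal protein genes had 0 of 73 called and a median of -0.32. Under the Molm13 label their medians were near 0, at 0.05 and 0.08, and under the U937 label -0.60 and -0.72. Genes in the shortest class by transcript length, described below, had medians of 0.28 and -0.29 under these labels.

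**Figure D3:**
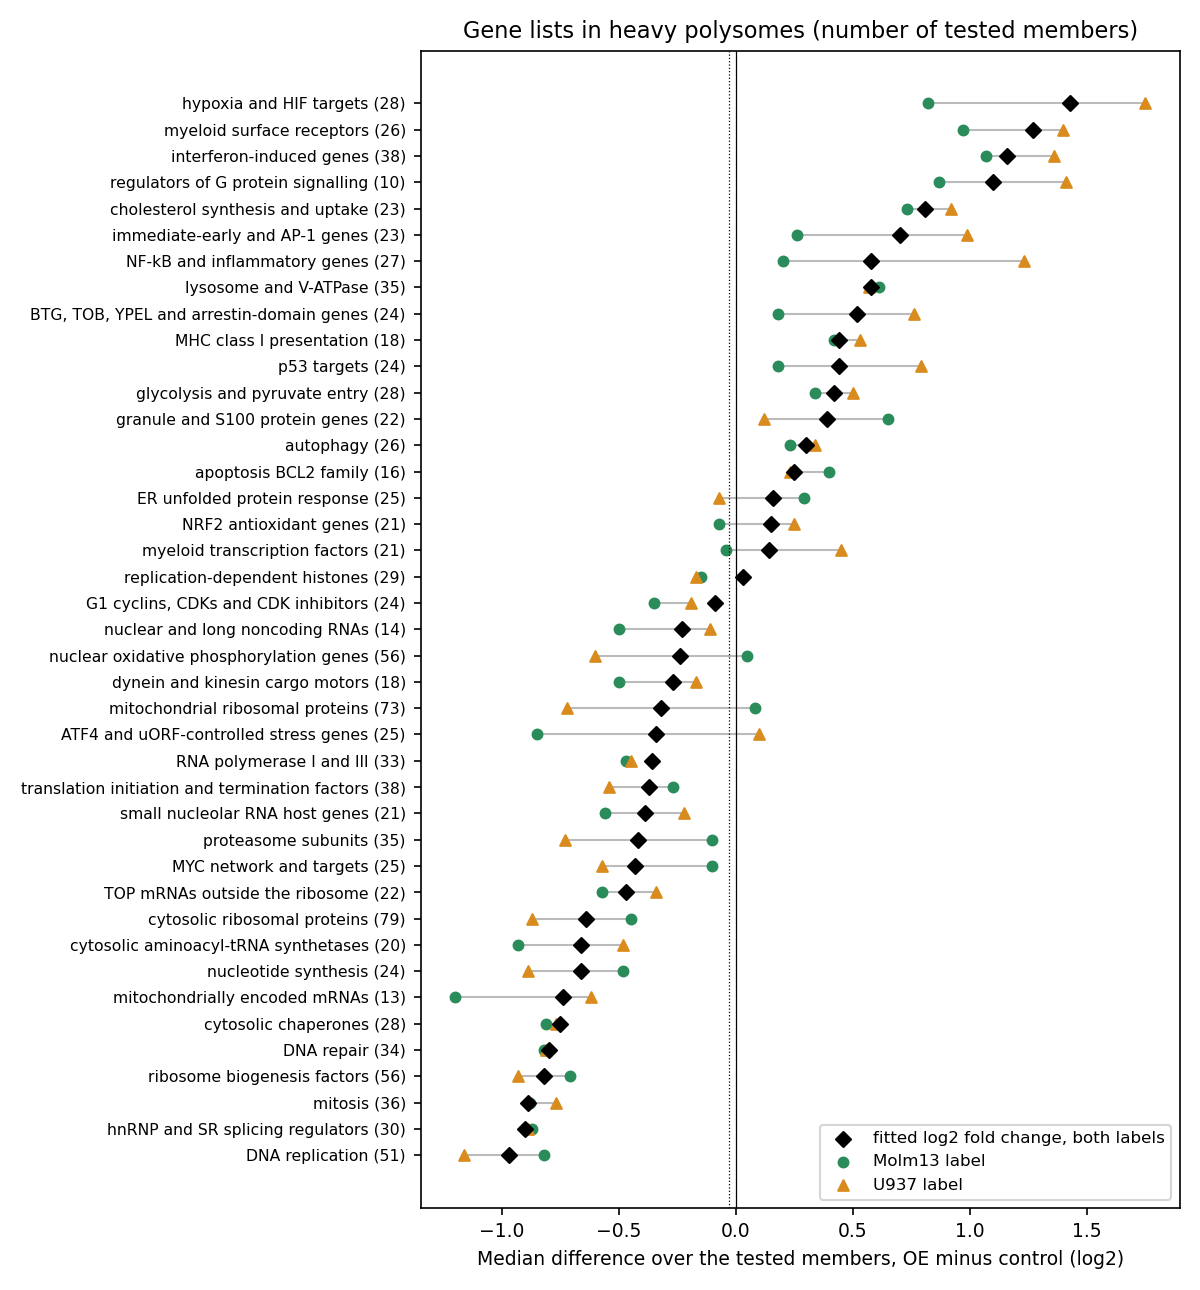
Median OE minus control difference (log2, x axis) over the tested members of each gene list except ribosomal oxygenases and RPS23 (8 tested). Medians are shown as the fitted log2 fold change over both labels (diamonds), under the Molm13 label (circles) and under the U937 label (triangles). The dotted line is the median of all genes tested, -0.03. Hypoxia targets (1.43) are at the top and DNA replication genes (-0.97) at the bottom. Mitochondrial ribosomal proteins lie near 0 under the Molm13 label and below 0 under the U937 label.

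Hypoxia targets rose together. HIF transcription factors are held low by prolyl hydroxylases that need oxygen, and their targets serve glycolysis, angiogenesis, pH control and mitophagy. Of 28 tested members 17 rose and 0 fell, 11 met the size rule, and the median log2 fold change was 1.43, with 0.82 under the Molm13 label and 1.75 under the U937 label. ADM, a vasodilator peptide gene (chromosome 11, 10304680 to 10307397, plus strand, GRCh38), was at 39.1 and 29.4 CPM in the libraries labelled OE and 1.17 and 1.25 CPM in the control libraries, from 932 and 2371 counts against 80 and 92. This was the highest log2 fold change of the genes named by size, 4.81 (SE 0.39, adjusted p = 2.54e-13). CA9, a carbonic anhydrase of the cell surface, was at 39.2 and 53.5 CPM against 6.67 and 0.435 CPM (4.55, SE 0.54, adjusted p = 2.3e-08). The CA9 groups were separate, but the difference was 2.55 under the Molm13 label and 6.84 under the U937 label.

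Other HIF targets with high levels followed. DDIT4, an inhibitor of mTORC1, was at 845 and 489 CPM in the libraries labelled OE against 145 and 105 CPM in the control libraries (2.38, SE 0.45, adjusted p = 0.000245). The mitophagy receptor gene BNIP3 was at 409 and 273 against 78.8 and 63.7 CPM (2.24, SE 0.41, adjusted p = 0.000176), and its relative BNIP3L at 395 and 345 against 133 and 78.5 CPM (1.85, adjusted p = 0.00218). P4HA1, a collagen prolyl hydroxylase, was at 163 and 207 against 42.8 and 30.6 CPM (2.34, SE 0.39, adjusted p = 3.76e-05). The remaining calls were NDRG1, ANKRD37, the glucose transporters SLC2A1 and SLC2A3, PFKFB4, ALDOC, MXI1, INSIG2, BHLHE40, MIR210HG and JMJD6. Members that did not pass were VEGFA (0.79, adjusted p = 0.199), PDK1 (0.38), EGLN1 (0.76), KDM3A (0.55), P4HA2 (1.55), PFKFB3 (0.32), LDHA (0.52), PGK1 (0.67), ENO1 (0.47), ERO1A (0.53) and HK2, the only negative value at -0.53. VEGFA overlapped between the groups, with 34.2 and 51.9 CPM in the libraries labelled OE and 38.9 and 15.3 CPM in the control libraries.

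HIF binds a short core sequence, and both of its forms, ACGTG and GCGTG, were searched for in the RefSeq promoter windows on both strands. A match was present in 21 of 25 hypoxia-list promoters (84.0%), in 48.4% of all promoters and in 65.9% of promoters of genes at 10 CPM or more. The motif is short, and promoters of genes lower by size held it in 76.5% of cases and those of genes higher by size in 55.5%. The stretches around the match nearest to the start and upstream of it are shown for 4 of the called targets, with the match in capitals (ADM, plus strand, chr11:10304962-10304986; CA9, plus strand, chr9:35673900-35673924; DDIT4, plus strand, chr10:72273861-72273885; BNIP3, minus strand, chr10:131982013-131982037).
ADM: gcaggagcgcGCGTGgctgaggaaa
CA9: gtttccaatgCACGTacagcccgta
DDIT4: cgcagagaagGCGTGgcctcgccgc
BNIP3: cgcccctgcgCACGCgcaggcccca
In CA9 and BNIP3 the capitals are reverse complements of the motif. The ADM and CA9 matches lie upstream of the RefSeq start but inside the longer span that GENCODE gives these genes. The whole windows held 1 match in ADM and CA9, 4 in DDIT4 and 6 in BNIP3.

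Of 28 glycolysis genes 18 had positive values. In all 3 rose (ALDOC, ENO2 and the lactate exporter SLC16A3) and 1 fell, the pyruvate dehydrogenase subunit DLAT, with a median of 0.42. ALDOC is also counted among the hypoxia targets. Summed over the list, glycolysis mRNAs held 25900 and 17200 CPM in the libraries labelled OE and 16200 and 11500 CPM in the control libraries. SLC16A3 was at 139 and 60.3 CPM in the libraries labelled OE against 52.3 and 19.0 CPM in the control libraries (1.54, SE 0.35, adjusted p = 0.00223). ALDOA was at 4940 and 2930 against 2240 and 1370 CPM and did not pass (1.12, SE 0.54, adjusted p = 0.223).

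Interferon-induced genes rose in 15 of 38 cases and fell in 0, with a median of 1.16, although 14 of the 38 reached a mean of 10 CPM and 4 met the size rule. IFI6, a mitochondrial and endoplasmic reticulum protein with antiviral activity, was at 72.9 and 34.6 CPM in the libraries labelled OE against 6.09 and 4.00 CPM in the control libraries (3.35, SE 0.36, adjusted p = 1.96e-09). USP18, which removes ISG15 from proteins, was at 21 and 13.6 against 6.17 and 3.36 CPM (1.89, SE 0.36, adjusted p = 0.000233). The transcription factor genes IRF9 and IRF7 were at 25.1 and 12.8 against 9.6 and 3.47 CPM and at 26.8 and 23.4 against 12 and 8.72 CPM (1.63 and 1.29, adjusted p = 0.00123 and 0.00851). The groups did not overlap in these genes, which were chosen for a difference shared by both line pairs. The remaining calls were IFIT2, IFIT3, IFI27, IFI44, ISG20, OAS1, OAS2, OASL, RSAD2, EPSTI1 and GBP2, of which RSAD2, IFI44 and EPSTI1 had means under 1 CPM. The signal transducer STAT2 (-0.01) and the abundant ISG15 (156 and 104 against 68.4 and 99.3 CPM; 0.63, adjusted p = 0.355) did not pass.

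A motif of the interferon-stimulated response element, TTCNNTTTC on either strand, was in 20 of 31 promoters of the whole interferon list (64.5%), called or not. It was in 8.29% of all promoters and in 6.77% of promoters of genes at 10 CPM or more. The IRF9 promoter window held 0 matches. IFI6, which had the largest shared increase of the list's genes at 10 CPM or more, held 3 matches, and the stretch around the match nearest to its start is shown with the match in capitals (minus strand, chr1:27672252-27672310, GRCh38.p14).
IFI6: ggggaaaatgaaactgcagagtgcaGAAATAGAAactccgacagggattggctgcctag
The motif was in 9.09% of promoters of genes higher by size and 4.03% of those of genes lower by size. The higher genes by size include 4 members of the interferon list, so the 9.09% is not separate from the share of that list.

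MHC class I genes, which present peptides, had a median of 0.44 with 2 of 18 higher, HLA-C and HLA-F, and 0 lower. HLA-C was at 1830 and 2050 CPM in the libraries labelled OE against 655 and 629 CPM in the control libraries (1.59, SE 0.50, adjusted p = 0.0371); class I genes are similar in sequence, and reads may be split between them. B2M, their shared light chain, was at 5170 and 4610 against 1900 and 2330 CPM and did not pass (1.21, SE 0.56, adjusted p = 0.191). Of 27 NF-kB and inflammatory genes 8 rose and 0 fell (median 0.58), with 1 meeting the size rule. That gene was ICAM1, a leukocyte adhesion molecule, at 47.1 and 38.7 against 12.8 and 3.20 CPM (2.73, SE 0.38, adjusted p = 6.45e-07). The chemokine genes CCL2, CCL3, CCL4, CCL5 and CCL20 with BCL3 and TRAF1 were the others. CCL5 differed by 0.68 under the Molm13 label and 2.99 under the U937 label. Of 23 immediate-early genes MAFF rose and 0 fell.

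Receptors of the myeloid surface were higher. Of 26 tested members 13 rose and 0 fell, 9 met the size rule and the median was 1.27. CD68, a lysosomal glycoprotein of macrophages, was at 209 and 190 CPM in the libraries labelled OE against 32.0 and 31.3 CPM in the control libraries (2.65, SE 0.39, adjusted p = 2.86e-06). FCGR2B, the inhibitory Fc gamma receptor, was at 44.7 and 37.3 against 6.64 and 0.857 CPM (4.03, SE 0.44, adjusted p = 3.13e-09). The integrin alpha M gene ITGAM was at 37.1 and 38.1 against 13.9 and 6.26 CPM (2.01, SE 0.35, adjusted p = 7.96e-05), and the costimulatory ligand CD86 at 29.2 and 34.7 against 12.7 and 7.59 CPM (1.70, SE 0.35, adjusted p = 0.000653). In these genes, chosen for a difference shared by both line pairs, the 2 groups were separate. The lower control value was under the U937 label in each. The other calls were CD93, ITGAX, CSF1R, CSF3R, FCGR2A, KIT, CD44, CXCR4 and LILRB4. Myeloid transcription factors had a median of 0.14 with GATA2 higher and 0 lower among 21, and granule and S100 protein genes a median of 0.39 with CST7 higher and S100A8 lower among 22. The T cell receptor component CD3D, named as a marker, was at 70.0 and 119 CPM in the libraries labelled OE against 14.0 and 7.07 CPM in the control libraries (3.20, SE 0.39, adjusted p = 4.16e-08) and the granule gene NKG7 at 480 and 390 against 168 and 141 CPM (1.49, adjusted p = 0.0176). TRAC, the constant region of the T cell receptor alpha chain, was at 110 and 118 against 66.5 and 41.9 CPM (1.11, SE 0.36, adjusted p = 0.0454). Of 8 T and NK markers 4 were tested, all 4 were positive with a median of 1.41, and 3 rose, while CD3E, CD3G, CD2 and CD8A were under 1 CPM in every library. The immunoglobulin kappa constant gene IGKC, among the 10 largest decreases, was at 59.6 and 28.2 CPM in the libraries labelled OE against 162 and 150 CPM in the control libraries (-1.93, SE 0.38, adjusted p = 0.000456), whereas the B cell markers summed to more in the libraries labelled OE, as given above. The part of other cells in these values was not tested.

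Regulators of G protein signalling, which speed GTP hydrolysis on G alpha subunits, rose in 4 of 10 tested cases and fell in 0 (median 1.10). RGS2 was at 45.0 and 55.0 CPM in the libraries labelled OE against 8.22 and 7.11 CPM in the control libraries (2.70, SE 0.35, adjusted p = 1.2e-07). RGS1 was at 54.6 and 54.3 against 13.4 and 2.12 CPM (3.32, SE 0.42, adjusted p = 1.01e-07), and RGS16 at 1430 and 411 against 172 and 101 CPM (2.54, SE 0.48, adjusted p = 0.000242). RGS3 was the remaining call. Among the genes of largest increase in no list were CCL24, an eosinophil chemokine, at 40.3 and 35.9 against 4.04 and 1.21 CPM (4.08, SE 0.40, adjusted p = 1.19e-10), and the tetraspanin CD9 (3.56, SE 0.39, adjusted p = 4.31e-09). The mast cell tryptase gene TPSB2 (3.54), the muscle-type adenylosuccinate synthetase gene ADSS1 (3.41), the chloride channel family gene CLIC3 (3.23), the neuroserpin gene SERPINI1 (3.13), LINC02574 (3.03), the lysosomal protease CTSF (2.91) and TBC1D30 (2.86) also rose. TPSB2 has near-identical tryptase copies, so its value is uncertain.

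Cholesterol synthesis and uptake genes, targets of SREBP2, had positive values in 23 of 23 tested members, from 0.03 to 1.84 with a median of 0.81; 7 rose and 0 fell. MSMO1, a sterol methyl oxidase, was at 107 and 116 CPM in the libraries labelled OE against 35.6 and 30.8 CPM in the control libraries (1.75, SE 0.35, adjusted p = 0.000603). TM7SF2, a sterol reductase, was at 110 and 74.4 against 26.7 and 24.0 CPM (1.84, SE 0.35, adjusted p = 0.000236). INSIG1, which retains the SREBP escort in the endoplasmic reticulum, was at 670 and 560 against 244 and 238 CPM (1.35, SE 0.44, adjusted p = 0.0465). The groups were separate in these genes, which were chosen for a difference shared by both line pairs. CYP51A1, SC5D and the sterol carrier STARD4 were also called. A sterol response motif, TCACNCCAC on either strand, was in 1 of 18 promoter windows of the whole cholesterol list, called or not, and in 1.15% of all promoters.

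Lysosome genes rose in 10 of 35 cases and fell in 0 (median 0.58). The protease CTSB was at 764 and 704 CPM in the libraries labelled OE against 133 and 173 CPM in the control libraries (2.27, SE 0.46, adjusted p = 0.000566). PSAP, the precursor of the saposins that activate sphingolipid hydrolases, was at 481 and 495 against 136 and 113 CPM (1.98, SE 0.43, adjusted p = 0.00148), and NPC2, which binds cholesterol in the lysosome, at 163 and 135 against 53.2 and 56.6 CPM (1.44, SE 0.37, adjusted p = 0.00785). LAMP2, CTSH, CTSS, GLB1 and ATP6AP1 were also called. Of 26 autophagy genes SQSTM1 and GABARAPL1 rose and 0 fell (median 0.30).

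Genes linked to growth arrest rose in part. Of 24 BTG, TOB, YPEL and arrestin-domain genes 6 rose and 0 fell (median 0.52), and of 24 p53 targets 6 rose and 0 fell (median 0.44). Both medians were 0.18 under the Molm13 label, and 0.76 and 0.79 under the U937 label. By the size rule 4 and 2 members were higher. BTG2, an antiproliferative factor that recruits the CCR4-NOT deadenylase and stands in both lists, was at 40.2 and 40.7 CPM in the libraries labelled OE against 11.8 and 5.47 CPM in the control libraries (2.33, SE 0.35, adjusted p = 6.22e-06). TSC22D3, a glucocorticoid-induced gene, was at 417 and 342 against 119 and 57.7 CPM (2.19, SE 0.42, adjusted p = 0.00035). ARRDC3, YPEL3, YPEL5 and PIK3IP1 rose with it, and CDKN1A, PMAIP1, FAS, GDF15 and SESN1 were the other p53 targets called. CDKN1A was at 548 and 786 CPM in the libraries labelled OE against 317 and 178 CPM in the control libraries (1.47, SE 0.47, adjusted p = 0.0384). Of 16 BCL2 family genes PMAIP1, BMF and BCL2A1 rose and 0 fell.

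Histone genes split. Of 29 tested replication-dependent histone genes 4 rose and 2 fell, and the median was 0.03, or -0.20 without the cell line term. Of the 29, 7 reached a mean of 10 CPM, so the median rests mostly on genes of low count. H2AC6 was at 278 and 294 CPM in the libraries labelled OE against 41.9 and 21.3 CPM in the control libraries (3.26, SE 0.43, adjusted p = 2.23e-07), and H2BC5 at 25.7 and 27.6 against 9.17 and 5.09 CPM (1.96, SE 0.35, adjusted p = 0.000116). H2BC12 and H1-2 rose too, and H1-4 and H2BC9 fell. Histone genes are near-identical copies, so reads may be split between them. Stress genes controlled by ATF4 had a median of -0.34 with 4 of 25 lower (ASNS, PSAT1, ALDH1L2 and SLC7A1); the median was -0.85 under the Molm13 label and 0.10 under the U937 label. ATF4 itself was at 185 and 209 against 333 and 297 CPM (-0.68, adjusted p = 0.358). The unfolded protein response list had DNAJB9 higher among 25 and a median of 0.16, and the NRF2 list had HMOX1 and FTH1 higher among 21 and a median of 0.15. Of 18 dynein and kinesin cargo genes DYNC1I1, DYNC1I2 and DYNLL2 fell, and of 14 nuclear and long noncoding RNAs MALAT1 rose. MALAT1 held 0.575% and 0.119% of counts in the libraries labelled OE and 0.142% and 0.0474% in the control libraries.

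Transcript length moved with the differences, and not in the same way under both line labels. The 9161 genes were ranked by their longest annotated transcript, available for 8784, and cut into 5 classes of near-equal size. From the shortest to the longest class the median difference under the Molm13 label was 0.28, 0.23, -0.04, -0.18 and -0.40, and under the U937 label -0.29, -0.08, -0.03, 0.00 and -0.05. Genes higher by size numbered 81, 89, 54, 51 and 24 in these classes, and genes lower by size 28, 19, 45, 57 and 66. The median longest transcript was 1585.5 bases for nuclear oxidative phosphorylation genes, 1717 for mitochondrial ribosomal proteins and 1857 for cytosolic ribosomal proteins. It was 3249 for replication genes and 3586 for hypoxia targets. The part of length in the list results was not tested.

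**Figure D4:**
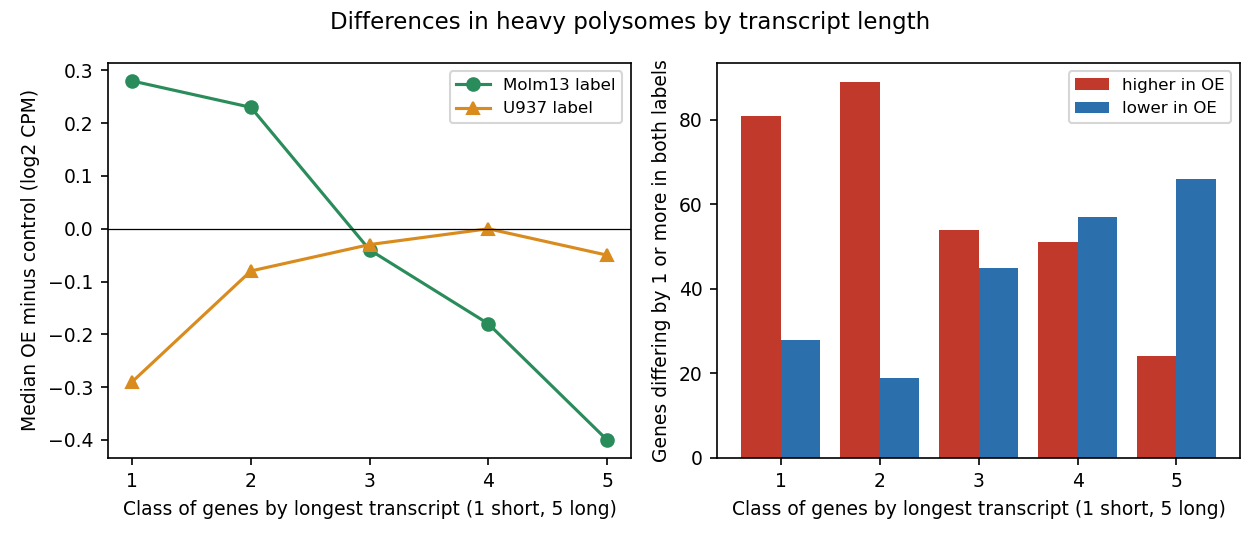
Left, median OE minus control difference (log2 CPM, heavy pools) under each line label in 5 classes of genes ranked by longest transcript, from short to long; right, number of genes higher (red) and lower (blue) in OE by at least 1 under both line labels. The Molm13 medians run from 0.28 to -0.40 and the U937 medians from -0.29 to -0.05.

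Whether a difference was particular to the heavy pools was asked by an interaction test over all 8 libraries, which set OE over control in the heavy pools against the same in the light pools (free RNA, monosomes and disomes). By edgeR 0 of 24289 genes passed in either direction, with 1431 at an unadjusted p under 0.05 and a smallest adjusted p of 0.791. DESeq2 called 4, all lower. Counts were simulated with less spread than the edgeR fit found (biological coefficient of variation 0.359). The spread was the same for every gene and no light library stood apart, so recovery may be overstated for these data. On these counts the edgeR test recovered 0% of 2-fold changes. It recovered 29.9% of 4-fold and 86.4% of 8-fold changes. The absence of calls therefore does not show that the pools differed alike. The Molm13 control light library stood apart from the other light libraries and was closer to the heavy ones. Mitochondrial genes took 19.8% and 20.5% of counts in the OE light libraries, 2.49% in Molm13 control light and 23.3% in U937 control light. Across genes at 10 CPM or more, the Molm13 control light library correlated at 0.914 to 0.935 with the heavy libraries. With the other light libraries the Molm13 control light library correlated at 0.814 to 0.852. Without it the test called 0 genes (smallest adjusted p = 0.108), whereas 1177 rose and 194 fell without the U937 control light library, which leaves the Molm13 library as the lone light control. No gene or list is therefore called particular to the heavy pools.

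The light-pool values beside the heavy ones differed between lists, and are given without the Molm13 control light library because several depended on it. That leaves the U937 control light library as the lone light control. Every light-pool and heavy minus light value given without the Molm13 library therefore rests on that control. DNA replication genes had a median of -0.91 in the light pools, ribosome biogenesis factors -0.89, hnRNP and SR genes -0.89, hypoxia targets 1.27 and interferon-induced genes 0.99, all with the sign of their heavy-pool median. With that library included these medians were -0.91, -0.77, -0.62, 0.67 and 0.62, in the same order. Cytosolic ribosomal protein genes had a median of -0.64 in the heavy pools against -0.01 in the light pools, and TOP mRNAs outside the ribosome -0.47 against 0.37; with the Molm13 control light library the light-pool medians were 0.08 and 0.77. The median of the heavy minus light difference was -0.62 for ribosomal proteins and -0.83 for TOP mRNAs, against 0.02 over all genes tested. With the library included these medians were -0.77 and -1.18, against 0.11. Lysosome genes had a median of 0.58 in the heavy pools and 0.07 in the light pools, and the light-pool median was -0.26 with that library, so its sign rests on 1 library.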

How the data were processed

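RNA of heavy polysome pools was analysed in 4 of 8 libraries; the light pools entered the interaction test and stated alternatives. Raw read counts for 78932 gene IDs were deposited by the authors in 1 table. The submitters' processing notes name featureCounts, STAR, cutadapt and GRCh38; versions, annotation release and strand setting were not given in the sources used here. Smart-seq libraries, used per the labels' protocols, do not mark strand. TALAM1, antisense to MALAT1, had 148075 counts against 148117 in the Molm13 library labelled OE, so a read in overlapping genes counted for each, and values of antisense, overlapping or near-identical genes are uncertain. Symbols were found for 61481 IDs. Positions are from GENCODE release 29 and promoters from RefSeq (149 of 188 named genes matched).

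The main test was edgeR 4.0.16 (R 4.3.3), quasi-likelihood, TMM scaling, filterByExpr, genotype plus cell line in the 4 libraries (1 residual degree of freedom), Benjamini-Hochberg threshold 0.05. The biological coefficient of variation was 0.293. Within-label differences are log2 CPM with a prior count of 2. DESeq2 1.42.0 and limma 3.58.1 voom were alternatives; an adjusted p that DESeq2 gave as NA stayed NA. The line pairs the libraries by design; the Molm13 minus U937 differences under OE and control correlated at 0.203 across 9161 genes. The scripts were tested on simulated counts before use. The main test recovered 10.4% of simulated 2-fold changes, 83.6% of 4-fold and 100% of 8-fold changes. A gene that did not pass may therefore still differ. SE derives from the F statistic.

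Genes named were OGFOD1, RPS23, the 10 largest log2 fold changes per direction at 10 CPM or more, the 12 largest differences shared by both labels, and up to 4 members per list ranked likewise; the called members of a list described are named, except some that are not reported here. A few uncalled members were named after their values were seen. The comparison and the 42 gene lists were chosen with earlier results of these data known.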

Additional observations from a re-analysis of the deposited data

Results flagged for a closer look

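At a mean of at least 10 CPM, 7 genes differed between OE and control by at least 1 on the log2 scale with opposite signs under the line labels, with 1 pair of libraries per label, so the difference between labels was not tested. BEX1 differed by 2.99 under the Molm13 label and -1.73 under the U937 label, IGLL1 by 2.31 and -1.41, and the protease inhibitor gene SLPI by 2.00 and -1.57. In the other direction CYFIP2 differed by -1.01 under the Molm13 label and 1.20 under the U937 label, the cytoskeletal linker gene PLEC by -1.19 and 1.15, RESF1 by -1.07 and 1.26, and the spectrin gene SPTBN1 by -1.63 and 1.56. BEX1 was at 104 and 22.8 CPM in the Molm13 and U937 libraries labelled OE, against 13.1 and 75.6 CPM in the control libraries.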

How the results depend on the processing

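With 2 libraries per group, the calls rest on a spread estimated across genes. The 1060 higher and 623 lower genes stayed within 1.5 times under DESeq2, limma voom, RLE and upper-quartile scaling and no filter on low counts. With no replicate block (the line pairing left out) 419 were higher and 178 lower, all 597 among the original calls. The fit of all 8 libraries gave 0 higher and 1 lower, and leaving out 1 heavy library from it gave 0 to 28 higher and 0 to 3 lower (28 and 3 without the Molm13 library labelled OE). Fits of 3 heavy libraries with no line term gave 267 higher and 78 lower without Molm13 OE, 240 and 25 without U937 OE, 600 and 121 without Molm13 control, and 342 and 187 without U937 control. The cause was not tested. Of 188 named genes, 117 were called in the main fit. All 117 lost their call in the fit of all 8 libraries, and 39 lost it with no replicate block. No named gene reversed its sign in any alternative. OGFOD1 was at -1.52 in the fit of all 8 libraries, past no threshold, and with a heavy library left out of it at -2.12 (Molm13 OE), -1.0 (U937 OE), -1.93 (Molm13 control) and -1.18 (U937 control); with 3 heavy libraries it missed the threshold at -1.04 without U937 OE and -1.26 without U937 control. By size, 738 genes were higher and 426 lower at a minimum of 1 CPM and 1300 and 911 with no minimum, where more genes could be counted. The interaction called 4 lower genes with DESeq2, 53 higher and 21 lower with no filter, and 0 to 1177 higher and 0 to 194 lower with a library left out. Among list medians, that of the histone genes changed sign, to -0.20 with no replicate block. The fits of 3 heavy or 7 libraries were chosen after seeing the data.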
